A study of Mus musculus with 2 samples.

Results

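Klrg1 and the alarmin receptor genes Il1rl1, Il18r1, Il18rap and Il1r2 were followed in splenic regulatory T cells (Tregs) of newborn mice. The 5 genes were taken by symbol from the 32285 genes that both libraries list. They were measured in every barcode in which 300 or more genes were detected and no more than 5% of unique molecular identifiers (UMIs, 1 per captured transcript) were mitochondrial. These were 8053 barcodes in WT, of which 1825 (22.7%) held a UMI of at least 1 of the 5 genes, and 13767 in KO, of which 634 (4.61%) did. The genes were chosen by their UMI levels by T cell state and genotype in these same libraries, so the values below are a description and no test was made on them.

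The study had sorted live YFP+ 7AAD- cells from spleens of 7-day-old C57BL/6J mice and made 1 droplet library per genotype, WT and KO (Zfp335fl/flFoxp3-Cre). In KO mice the Cre recombinase is driven by Foxp3, the transcription factor that defines Tregs, so that Zfp335, a zinc finger gene, is deleted only in cells that express Foxp3. The study's WT mice carried Foxp3-Cre with the YFP reporter but no floxed Zfp335, so both groups shared the reporter. How many mice entered each library is not stated, and the study's methods add CD4 to the sort gate that the labels give. With 1 library per genotype there was no replicate, every interval is a 95% interval of counting error only, and mouse, sort and library cannot be told apart from genotype.

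KLRG1 is an inhibitory lectin-like receptor of T and NK cells that binds cadherins and marks differentiated effector cells, effector Tregs among them. IL1RL1, also called ST2, is the receptor for interleukin-33, a cytokine released by damaged tissue and called an alarmin for that reason, and Tregs that carry it are known from fat, gut and muscle. IL18R1 and IL18RAP are the binding and the accessory chain of the interleukin-18 receptor. IL1R2 binds interleukin-1 without signalling and acts as a decoy. Apart from the decoy and KLRG1, these receptors signal through MYD88, IRAK kinases and TRAF6 to NF-kB.

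The 4 interleukin receptor genes lie in 1 direction along chromosome 1 (GRCm38, plus strand, GENCODE). Il1r2 (ENSMUSG00000026073) spans bases 40074079 to 40125231, Il1rl1 (ENSMUSG00000026069) 40429570 to 40465415, Il18r1 (ENSMUSG00000026070) 40465552 to 40500854 and Il18rap (ENSMUSG00000026068) 40515362 to 40551705. Only 136 bases separate the end of Il1rl1 from the start of Il18r1, and 14507 bases separate Il18r1 from Il18rap. Il1r1 and Il1rl2 lie between Il1r2 and Il1rl1. Klrg1 (ENSMUSG00000030114) stands alone on chromosome 6, minus strand, 122270596 to 122282882, and overlaps no other annotated gene. Il1r2 overlaps 2 further genes, 1 of them on its own strand, and 1 of the 2 is among the counted genes. Whether its reads are thereby less surely assigned than those of the other 4 was not checked. Il1rl1 has 5 coding transcripts with 5 different 3′ ends, and the counts are summed per gene, so its membrane and soluble forms are not separated.

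Since neighbouring receptor genes were low together in KO, the 250 bases before their starts are shown for the windows that lie outside exons or nearly so. Promoters were taken from RefSeq (GRCm38.p6), which matched 4 of the 5 genes with 7 start sites. Capitals mark the letters of a GATA motif (AGATAA or TGATAA) or a RUNX motif (TGTGGT) on either strand. An AP-1 motif (TGANTCA) was searched as well and is in none of the 7 windows. Each line gives the gene, the start site and the plus-strand sequence, 5′ to 3′.
Il1rl1 start 1, chr1:40429320-40429569, intergenic: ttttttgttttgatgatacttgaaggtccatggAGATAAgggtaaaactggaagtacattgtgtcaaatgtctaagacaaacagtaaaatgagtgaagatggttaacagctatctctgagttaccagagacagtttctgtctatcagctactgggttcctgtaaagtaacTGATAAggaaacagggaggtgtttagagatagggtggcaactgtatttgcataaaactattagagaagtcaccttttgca
Il1rl1 start 2, chr1:40439379-40439628, inside the longer Il1rl1 transcript with 2 exonic bases: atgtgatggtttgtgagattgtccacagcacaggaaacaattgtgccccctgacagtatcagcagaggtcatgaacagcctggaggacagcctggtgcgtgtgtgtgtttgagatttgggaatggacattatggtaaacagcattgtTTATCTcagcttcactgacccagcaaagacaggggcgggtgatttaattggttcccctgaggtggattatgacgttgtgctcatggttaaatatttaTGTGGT
Il18rap, chr1:40515112-40515361, intergenic: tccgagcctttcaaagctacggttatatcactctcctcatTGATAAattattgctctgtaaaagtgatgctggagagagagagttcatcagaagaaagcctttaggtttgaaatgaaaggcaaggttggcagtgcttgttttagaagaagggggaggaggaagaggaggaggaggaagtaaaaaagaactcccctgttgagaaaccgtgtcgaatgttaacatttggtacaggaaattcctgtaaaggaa
The upstream window of Il1rl1 start 1 holds 2 GATA matches, that of start 2 holds 1 GATA and 1 RUNX match, and that of Il18rap 1 GATA match. The window before Il18r1 start 1 shares 114 bases with exons of Il1rl1, holds none of the 3 motifs and is not printed. The window of Il1r2 holds 1 GATA match and also runs over exons. Of all 32851 promoter windows of this length, 16.6% hold the GATA letters, 14.05% the RUNX letters and 6.75% the AP-1 letters. A match of letters is a description of the window and not a bound site.

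The WT library held 64567991 UMIs and the KO library 65480052. After the filter the WT barcodes were deeper, at a median of 5061 UMIs against 2713, and 44.6% of WT barcodes against 24.1% of KO barcodes had been set aside for mitochondrial UMIs. Zfp335, the targeted gene, had 435 UMIs in WT, 8.03 CPM, and 58 in KO, 1.01 CPM, a KO to WT ratio of 0.125 (0.0936 to 0.165). CPM is the summed UMIs of a gene per 1000000 UMIs of the same barcodes. Barcodes were clustered without the 5 genes, and clusters were named from marker lists. The T-lineage states were resting-like (2364 WT, 4992 KO barcodes), effector-like (2299 and 98), activated-like (469 and 1115) and cycling-like (589 and 794). A further 5 T-lineage clusters stayed unnamed, and erythroid-like, myeloid progenitor-like, neutrophil-like and B cell-like clusters were also present. The effector-like cluster was mostly WT, so it may be that library rather than a state. Treg genes were present in the T-lineage clusters of both libraries, with Foxp3 at 40.6 CPM in WT and 44.6 CPM in KO.

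All 5 genes were lower in KO over all kept barcodes, Klrg1 by far the most. Klrg1 had 1929 UMIs in WT and 45 in KO, or 35.6 CPM (34.0 to 37.2) against 0.781 CPM (0.569 to 1.04), a KO to WT ratio of 0.0219 (0.0159 to 0.0295). Il18rap stood at 10.9 CPM in WT and 3.05 in KO, a ratio of 0.279 (0.234 to 0.331). Il18r1 stood at 20.8 and 6.26 CPM, a ratio of 0.301 (0.266 to 0.339). The interleukin-18 receptor chains thus had overlapping intervals of their ratios. Il1rl1 stood at 8.39 and 2.78 CPM, a ratio of 0.331 (0.274 to 0.397), also overlapping theirs. Il1r2 was rare in both libraries, with 149 and 104 UMIs, 2.75 and 1.80 CPM and a ratio of 0.656 (0.506 to 0.849). Among the 10593 genes with at least 200 UMIs over both libraries, 3.29% were at least 2-fold lower in KO, and 4 of the 5 genes were among them. At least 10-fold lower were 13 genes, or 0.123%, and of the 5 genes only Klrg1 was one of these, at rank 5 from the lowest ratio. Since the genes were chosen for this contrast, these counts are read no further. In T-lineage clusters alone 3.49% of 10236 genes were at least 2-fold lower in KO, and so were the same 4 genes, with ratios of 0.0214 for Klrg1, 0.206 for Il18rap, 0.292 for Il18r1 and 0.304 for Il1rl1, against 0.592 (0.430 to 0.809) for Il1r2. In the barcodes set aside for mitochondrial UMIs, which come from the same libraries, the KO to WT ratios were 0.0178 (0.00365 to 0.0527) for Klrg1, 0.430 (0.262 to 0.683) for Il1rl1, 0.329 (0.241 to 0.443) for Il18r1 and 0.295 (0.190 to 0.444) for Il18rap. There Il1r2 had a ratio of 0.504 (0.193 to 1.19), which was not separable from 1 at this depth.

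With each barcode thinned to 1000 UMIs, a Klrg1 UMI was found in 181 of 6917 WT barcodes (2.62%) and 4 of 12640 KO barcodes (0.0316%), a KO minus WT difference of -2.59 points (-2.99 to -2.23). At their own depth 9.23% of WT and 0.276% of KO barcodes held one. In erythroid-like barcodes, which should lack the gene, 0 of 241 WT and 0 of 488 KO barcodes held a Klrg1 UMI after thinning, which allows a share of up to 1.24% and 0.615%. The thinned KO share thus cannot be told from background. The difference was -1.47 points (-1.85 to -1.13) for Il18r1, -0.731 (-1.0 to -0.503) for Il18rap and -0.643 (-0.905 to -0.421) for Il1rl1. For Il1r2 it was -0.0390 points (-0.178 to 0.0707), so a difference in the share of barcodes was not detectable.

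In WT, the 5 genes did not share 1 pattern over the 4 named T-lineage states. Klrg1 was highest of these in effector-like barcodes at 69.2 CPM (65.6 to 72.9), followed by cycling-like at 37.9, activated-like at 10.3 and resting-like at 5.63 (4.31 to 7.23). Each step in that order exceeded counting error, and the effector-like to resting-like ratio was 12.3 (9.51 to 16.2). The resting-like level of Klrg1 overlapped that of WT erythroid-like barcodes, 2.98 CPM (1.29 to 5.87), so it was not separated from background. An unnamed cluster of 40 WT barcodes (cluster 14), counted as T-lineage, stood at 151 CPM (69.2 to 287) from 9 UMIs in 2 barcodes. Its leading genes were C1qb, C1qc and C1qa of the macrophage marker list, and whether its Klrg1 UMIs came from T cells was not tested. Il18rap followed the same first steps, with 17.7 CPM in effector-like and 8.90 in cycling-like barcodes, while activated-like (4.01) and resting-like (3.41) barcodes did not differ beyond their intervals. Il18r1 was at 36.9 CPM in effector-like, 18.0 in cycling-like, 10.1 in resting-like and 6.68 in activated-like barcodes. Il1rl1 differed least between effector-like and resting-like barcodes. It stood at 11.8 CPM in effector-like and 8.12 in resting-like barcodes, a ratio of 1.46 (1.14 to 1.88), which at Leiden resolution 1.0 was 1.28 (0.970 to 1.70) and not separable from 1. It was lower in cycling-like (4.35) and activated-like (3.24) barcodes, which were not separable from each other. The resting-like level of Il18rap overlapped that of WT erythroid-like barcodes, 1.12 CPM (0.230 to 3.27), and that of Il1rl1, 8.12 CPM (6.51 to 10.0), did not exceed the erythroid-like 13.4 CPM (9.39 to 18.6), while Il18r1 exceeded the 2.24 CPM (0.820 to 4.87) there. All 36 of these erythroid-like Il1rl1 UMIs lay in cluster 8. The other erythroid-like cluster (cluster 11) held 0, which allows up to 7.41 CPM, so 13.4 CPM may not be background. Of the 5 genes Il1r2 alone was highest, among these 4 states, in activated-like barcodes, at 7.44 CPM against 0.646 in resting-like barcodes, a ratio of 11.5 (5.10 to 30.5). Of 8203 genes, 4.6% were at least 2-fold higher in effector-like than in resting-like WT barcodes, and so were Klrg1, Il18r1 and Il18rap, 3 of the 4 genes that reached the 200 UMIs of those 8203. Il1r2, with 36 and 7 UMIs, did not reach them. The effector-like barcodes held 36.8% of all WT UMIs but 71.5% of those of Klrg1, 65.1% of Il18r1, 59.5% of Il18rap, 51.9% of Il1rl1 and 24.2% of Il1r2.

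**Figure D1:**
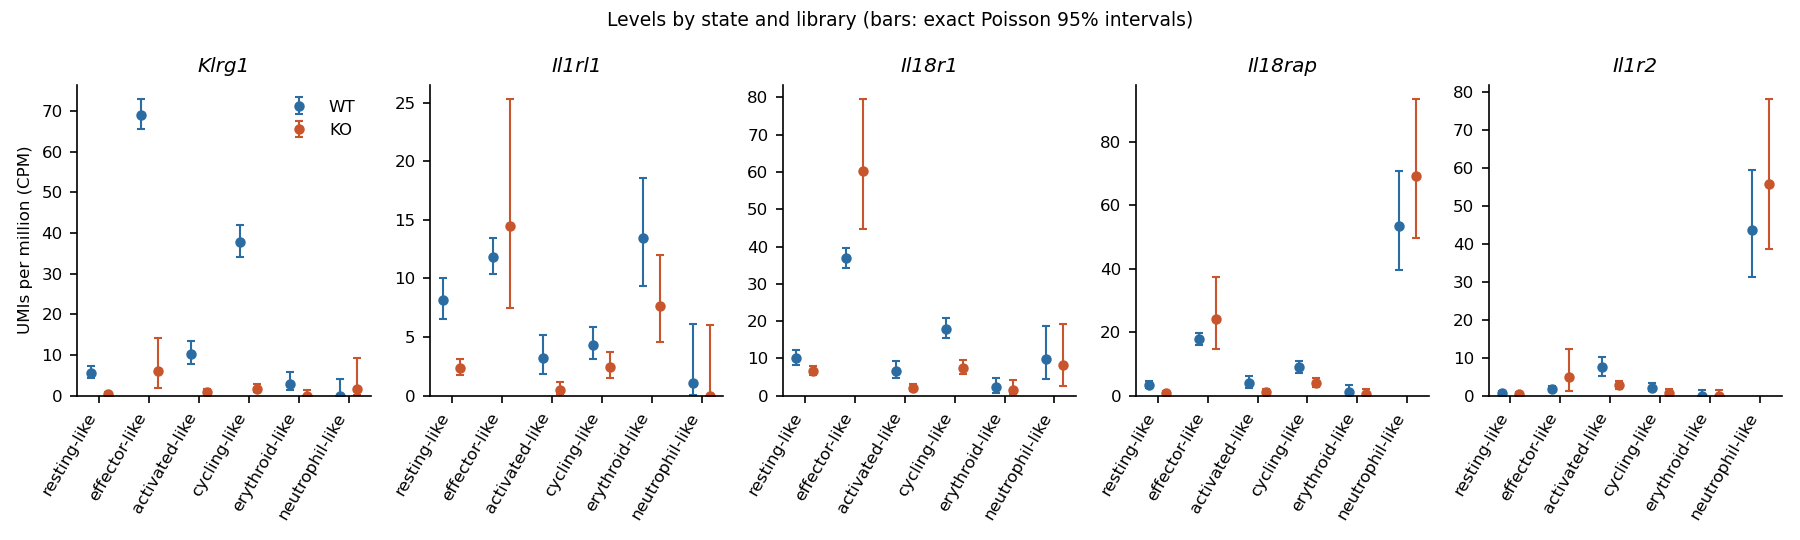
Level of each gene (CPM, 1 panel per gene with its own axis from 0) by state, WT in blue and KO in orange, with exact Poisson 95% intervals. Klrg1 reached 69.2 CPM in WT effector-like barcodes and stayed at or below 6.03 CPM in all KO states shown, while Il18rap and Il1r2 were highest in neutrophil-like barcodes of both libraries.

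Because effector-like barcodes were few in KO, a library-wide level mixes makeup with level per barcode. WT levels of each state weighted by the UMI makeup of KO over 13 states would give a ratio of 0.409 for Klrg1, 0.526 for Il18r1, 0.760 for Il18rap, 0.912 for Il1r2 and 0.944 for Il1rl1. At the KO makeup, the remaining ratio of KO to WT levels was 0.0536 for Klrg1, 0.350 for Il1rl1, 0.367 for Il18rap, 0.572 for Il18r1 and 0.720 for Il1r2. In this order of weighting, the remaining ratio was thus well below the makeup ratio for Il1rl1, and both were similar for Il18r1. The KO makeup gives the effector-like state 1.44% of UMIs, against 36.8% in WT. In that state the KO values were above WT, at 14.5 against 11.8 CPM for Il1rl1 and 60.3 against 36.9 CPM for Il18r1. The difference of Il1rl1 there was not separable from counting error. That of Il18r1 reversed with doublet candidates removed or with at least 1000 genes per barcode. KO levels at the WT makeup were not computed, so the split between makeup and level is not settled. These weights depend on how the states were drawn. T-lineage cluster 7 held only 13 WT barcodes, where 2 Il18rap UMIs gave 119 CPM. There 1 UMI each of Klrg1 and Il1rl1 gave 59.6 CPM. The KO makeup gives that cluster 1.85% of UMIs, so these few WT UMIs weigh on both ratios of those genes. No interval was computed for the weighted ratios.

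Within resting-like barcodes, Klrg1 had 61 UMIs in WT and 10 in KO, 5.63 against 0.471 CPM, a ratio of 0.0837 (0.0382 to 0.165). Il1rl1 stood at 8.12 and 2.36 CPM in resting-like barcodes, a ratio of 0.290 (0.201 to 0.415), although these were the second highest of the 4 named states in WT. Neither Il1rl1 level exceeded that of erythroid-like barcodes, 13.4 CPM in WT and 7.66 in KO, which may not be background. Il18rap was at 3.41 and 0.943 CPM, a ratio of 0.276 (0.152 to 0.488), and its KO level overlapped that of KO erythroid-like barcodes, 0.403 CPM (0.0102 to 2.25). Il18r1 stood at 10.1 and 6.65 CPM, a ratio of 0.661 (0.511 to 0.856). Il1r2 had only 7 and 10 UMIs, and its ratio of 0.730 (0.251 to 2.26) was not separable from 1. In resting-like barcodes 0.841% of 8082 genes were at least 2-fold lower in KO. Of the 5 genes 3 were, but only Il18r1 reached the 200 UMIs that the 8082 genes had.

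In activated-like barcodes (72 of 6155 genes, or 1.17%, at least 2-fold lower in KO) all 5 genes were lower by more than 2-fold, each with an interval below 1, though none reached the 200 UMIs that those 6155 genes had. Klrg1 stood at 10.3 CPM in WT and 0.804 in KO, a ratio of 0.0780 (0.0321 to 0.165). Il1rl1 had 17 and 5 UMIs, a ratio of 0.155 (0.0447 to 0.437). Il1r2, which in WT was highest in this one of the 4 states, stood at 7.44 CPM in WT and 2.71 in KO, a ratio of 0.365 (0.215 to 0.611). Il18r1 and Il18rap had ratios of 0.301 (0.165 to 0.536) and 0.326 (0.150 to 0.682).

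In cycling-like barcodes (2.18% of 6800 genes at least 2-fold lower in KO) Klrg1 stood at 37.9 CPM in WT and 1.76 in KO, a ratio of 0.0464 (0.0257 to 0.0775). It was rank 3 from the lowest ratio there, and besides it only Il18r1 reached 200 UMIs. Il18r1 had a ratio of 0.411 (0.303 to 0.550) and Il18rap 0.435 (0.282 to 0.656). Il1r2, with 21 and 7 UMIs, had 0.387 (0.139 to 0.944), and Il1rl1 was closest to WT at 0.567 (0.319 to 0.976). WT cycling-like barcodes were deeper, at a median of 15089 UMIs against 9166.5 in KO. The unnamed T-lineage clusters differed among themselves. Cluster 2 was shallow, with a median of 682 UMIs in WT and 1415 in KO, and was led by globin and granule genes, among them Hba-a1 and Ngp. Klrg1 had 18 WT and 2 KO UMIs in it, a ratio of 0.0141 (0.00159 to 0.0590), and Il1rl1 had a ratio of 0.208 (0.0931 to 0.488). In cluster 6 Il1rl1 had 8 WT and 4 KO UMIs, a ratio of 0.998 (0.220 to 3.73), and Il18r1 had 33 and 4, a ratio of 0.242 (0.0623 to 0.680). In cluster 9, with 46 WT and 330 KO barcodes, Il1rl1 had 21 UMIs in KO, at 8.40 CPM (5.20 to 12.8). It had no UMI in WT, which allows up to 7.92 CPM, so the libraries were not separable there.

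**Figure D2:**
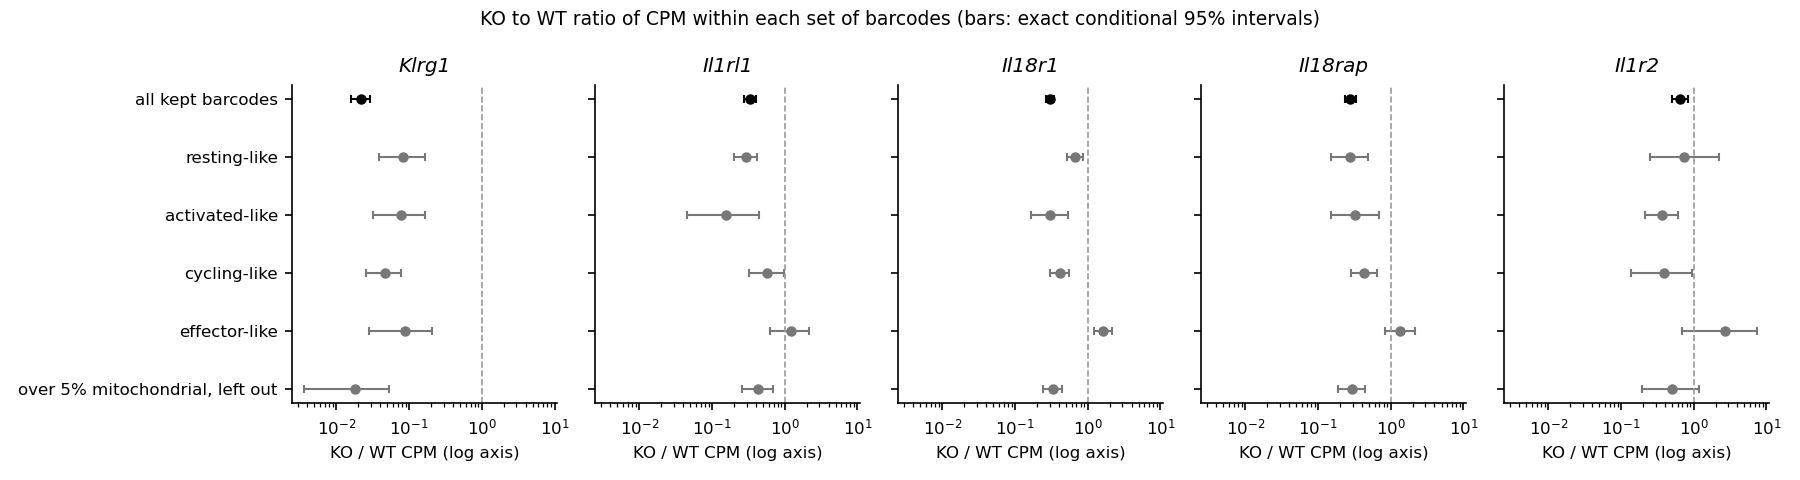
KO to WT ratio of CPM (log axis, 1 panel per gene) over all kept barcodes, within each named T-lineage state, and in the barcodes left out for more than 5% mitochondrial UMIs, with exact conditional 95% intervals and a dashed line at 1. Klrg1 lay left of the line in all 6 sets, with ratios from 0.0178 to 0.0872, while the other 4 genes lay right of the line in effector-like barcodes, Il18r1 alone with an interval that excluded 1.

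The effector-like state rested on 98 KO barcodes. Klrg1 had 1379 UMIs in 498 of the 2299 WT barcodes and 5 UMIs in 2 of the 98 KO barcodes, 69.2 against 6.03 CPM, a ratio of 0.0872 (0.0283 to 0.204). Il18r1 stood at 36.9 CPM in WT and 60.3 in KO, a ratio of 1.64 (1.20 to 2.18). Il1rl1 had a ratio of 1.22 (0.623 to 2.18), Il18rap 1.36 (0.822 to 2.14) and Il1r2 2.67 (0.691 to 7.45), none of them separable from 1. Markers of other lymphocytes were raised in the same KO barcodes. The NK cell markers Ncr1, Klrb1c and Eomes, all 3 detected, summed to 85.6 CPM in KO and 3.66 in WT effector-like barcodes. Of the KO barcodes 9 held at least 3 such UMIs, and 8 of these 9 were among the 30 with an Il18r1 UMI. The gamma delta T cell genes Trdc and Tcrg-C1 summed to 54.3 CPM in KO and 14.1 in WT, and the CD8 genes to 12.1 and 4.92. Of the group 2 innate lymphoid cell genes Il13 and Il5, 1 was detected, at 96.5 CPM in KO and 0.251 in WT, and 1 KO barcode held at least 3 of its 80 UMIs. Of the mast cell and basophil markers the KO effector-like barcodes held 1 UMI. Without barcodes that held at least 3 UMIs of 1 of these lists, 86 KO and 2264 WT barcodes were left, Klrg1 had no UMI in KO (ratio up to 0.0764) and Il18r1 had a ratio of 1.38 (0.954 to 1.94). With doublet candidates removed before clustering, 430 KO barcodes were effector-like, and the ratio was 0.0249 (0.00911 to 0.0543) for Klrg1, 0.548 (0.423 to 0.700) for Il18r1 and 0.391 (0.247 to 0.592) for Il18rap. With barcodes of at least 1000 genes it was 0.0242 (0.00785 to 0.0566), 0.465 (0.345 to 0.615) and 0.172 (0.0781 to 0.331). Under these settings the ratios of Il1rl1 (0.863 and 0.826) and Il1r2 (1.07 and 1.47) were not separable from 1. The directions of Il18r1 and Il18rap within this state therefore depend on where its boundary was drawn, and the part of the other lineages in it was not tested.

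Outside the T lineage, Il18rap and Il1r2 were abundant in neutrophil-like barcodes, and there the genotypes were not separable. Il18rap stood at 53.5 CPM in 91 WT and 69.1 in 83 KO barcodes, a ratio of 1.29 (0.833 to 1.99). Il1r2 stood at 43.7 and 55.9 CPM, a ratio of 1.28 (0.785 to 2.07). In T-lineage clusters alone the ratio of Il18rap was 0.206 (0.167 to 0.252), below the 0.279 over all kept barcodes. Il1rl1 was at 15.8 CPM in WT and 11.8 in KO in 1 of the erythroid-like clusters (cluster 8), a ratio of 0.745 (0.404 to 1.33), and had no UMI in the other one. Mast cell markers, 5 of 5 detected in WT, reached at least 3 UMIs in 10 WT and 4 KO barcodes of the whole data. Without barcodes of mast cell, basophil, NK or innate lymphoid markers the ratio of Il1rl1 was 0.321 (0.265 to 0.387), and that of Klrg1 was 0.0195 (0.0139 to 0.0267).

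Klrg1 also differed in how many UMIs a positive barcode held. Of 743 WT barcodes with a Klrg1 UMI, 403 held 1 and 239 held 3 or more, with a highest count of 17. Of the 38 KO barcodes, 33 held 1 UMI and the highest count was 3. Of the 37 such KO barcodes in T-lineage clusters, 5 held a Foxp3 UMI. The 2 effector-like ones held none, and 1 of them carried NK cell and 1 innate lymphoid markers at 3 UMIs or more. In WT effector-like barcodes, a Foxp3 UMI was found in 29.7% of Klrg1-positive and 25.9% of Klrg1-negative barcodes. Each of the 498 positive barcodes held a UMI of the CD3 or T cell receptor constant genes, and so did each of the 1801 negative ones. In WT clusters of other lineages 97.9% of Klrg1-negative barcodes also held one, so such a UMI does not set T cells apart here. Zfp335 had 72 UMIs in the WT barcodes with a Klrg1 UMI, 8.45 CPM (6.61 to 10.6), and 1 UMI in those of KO.

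Co-detection was then described in WT effector-like barcodes. Of these, 55.6% held none of the 5 genes, 30.2% held 1, 10.7% held 2, 3.13% held 3, 8 barcodes held 4 and no barcode held all 5. At full depth, Il1rl1 was found in 15.5% of 498 Klrg1-positive and 5.05% of 1801 Klrg1-negative barcodes, a difference of 10.4 points (7.29 to 13.97). Il18r1 was found in 27.1% and 17.9%, and Il18rap in 17.7% and 10.6%. Il1r2 was found in 1.2% and 1.499%. Klrg1-positive barcodes were slightly deeper, at a median of 8138 UMIs against 7391.

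After thinning to 3000 UMIs, Il1rl1 was the one gene of the 4 whose difference by Klrg1 had an interval above 0. Il1rl1 was then in 9.33% of 300 and 2.71% of 1955 barcodes, a difference of 6.62 points (3.71 to 10.5). For Il18r1 the difference was 1.46 points (-1.84 to 5.64) and for Il18rap 2.06 points (-0.463 to 5.57). Read from the other side, 34.6% of thinned Il1rl1-positive barcodes held a Klrg1 UMI against 12.5% of the others. In 3 depth classes of 765 to 767 effector-like barcodes, unthinned, the Il1rl1 difference was 18.3, 9.29 and 6.20 points from shallow to deep, each with an interval above 0. The interleukin-18 receptor chains went together, with Il18rap in 8.49% of thinned Il18r1-positive and 4.50% of Il18r1-negative barcodes, a difference of 3.99 points (0.779 to 8.59). In cycling-like barcodes that pair differed by 9.44 points after thinning (2.32 to 25.9), from 3 of 28 barcodes. In the 98 KO effector-like barcodes Il18rap was in 40.0% of the 30 Il18r1-positive and 5.88% of the 68 other barcodes, with 6 of the 9 barcodes of NK markers among those positive for Il18rap. Doublet candidates were 4.62% of Klrg1-positive and 8.16% of Klrg1-negative barcodes, and without them the thinned Il1rl1 difference was 6.98 points (3.97 to 10.98).

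**Figure D3:**
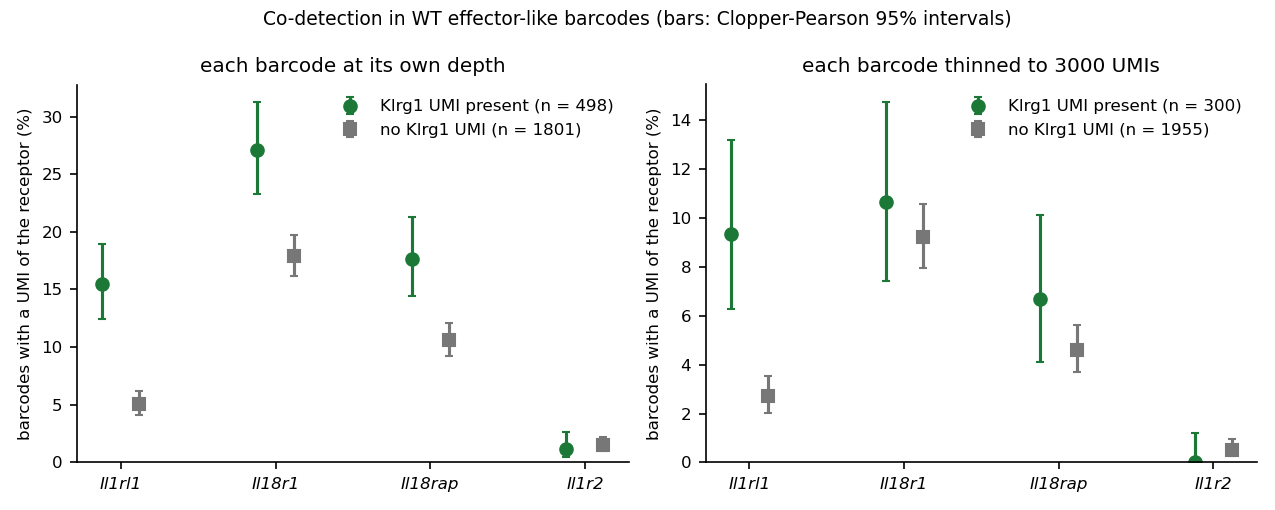
Percent of WT effector-like barcodes with a UMI of each receptor gene, among barcodes with (green circles) and without (grey squares) a Klrg1 UMI, at own depth (left) and thinned to 3000 UMIs (right), with Clopper-Pearson 95% intervals. The intervals for Il1rl1 were apart in both panels, at 9.33% and 2.71% after thinning, while those of the other genes overlapped after thinning.

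Klrg1-positive WT effector-like barcodes held more UMIs of granzyme B and of the chemokine receptors Ccr2 and Cxcr6, and fewer of Ccr7. Of 8686 genes with at least 100 UMIs, 0.219% were at least 2-fold higher and 0.276% at least 2-fold lower in Klrg1-positive barcodes. The highest ratio was that of Ltb4r1, the leukotriene B4 receptor, at 57.7 against 14.03 CPM, a ratio of 4.11 (3.42 to 4.94). Gzmb (granzyme B) followed at 3.54 (3.18 to 3.94), then Tmem273 at 3.37, Il1rl1 at 2.99 (2.30 to 3.89), the chemokine receptor Ccr2 at 2.97 (2.62 to 3.36), Bspry at 2.75 and Cxcr6 at 2.60. Plac8, Neb and Gzmc completed the highest 10, at 2.41, 2.41 and 2.39. The lowest 10 were Slc35a5 (0.312), Tnfsf14 (0.315), Nrn1 (0.321), the chemokine Ccl4 (0.330), Gm14718 (0.350), the lymph node homing receptor Ccr7 (0.360), Ryr2 (0.376), Capn3 (0.400), Mctp1 (0.401) and Qpctl (0.407). These sets share a library, and a barcode without a Klrg1 UMI may still express the gene.

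On a panel of Treg genes, 68 had at least 50 UMIs over both sets, a lower minimum than the 100 UMIs of the 8686 genes. Of these 68, 4 were at least 2-fold higher in Klrg1-positive barcodes (Gzmb, Ccr2 and Cxcr6 among them) and 1 was lower, Ccr7. Intervals lay above 1 for 38 genes and below 1 for 11. The share of such intervals over all genes was not computed, so these counts are read no further. The 9 effector marker genes had a median log2 ratio of 0.38, with 8 intervals above 1, led by S100a4 at 1.93 (1.86 to 2.00). Genes with intervals below 1 included Tcf7 at 0.533 (0.473 to 0.600), Id3 at 0.576, Bach2 at 0.615 and Lef1 at 0.852 (0.777 to 0.932). Klf2 at 0.965 (0.918 to 1.02) and Satb1 at 0.886 (0.778 to 1.01) were not separable from 1, and Il7r at 1.46, S1pr1 at 1.15 and Ly6c1 at 1.77 (1.34 to 2.32) were higher. The transcription factor Gata3, which promotes Il1rl1 in T cells, had 1.41 (1.29 to 1.54), and Prdm1 had 1.65 (1.25 to 2.17). Foxp3 at 1.18 (0.999 to 1.38) and Ikzf2 at 0.977 (0.940 to 1.01) were not separable from 1. With each barcode thinned to 3000 UMIs, which lowers the number of positive barcodes, 7 panel genes were at least 2-fold higher and 2 lower, 4 of them among the 5 above.

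The 168 Il1rl1-positive barcodes held more UMIs of Ltb4r1 (5.69, 4.68 to 6.91), Ccr2 (2.94, 2.51 to 3.44) and Klrg1 itself (2.54, 2.20 to 2.92). The background, over the 8686 genes with at least 100 UMIs, was 0.518% of genes at least 2-fold higher and 0.794% lower. Gzma was at 7.81 CPM in positive and 36.9 in negative barcodes, a ratio of 0.212 (0.109 to 0.373), and Ccl5 at 77.4 and 162, a ratio of 0.479 (0.396 to 0.576). Without the barcodes of other-lineage markers Gzma was at 7.90 and 19.9 CPM, a ratio of 0.396 (0.203 to 0.701), and Ccl5 at 0.515 (0.423 to 0.622). Gzmb was at 0.933 (0.751 to 1.15). On the panel 5 genes were at least 2-fold higher, Pparg (3.39, 1.77 to 6.10, from 15 against 53 UMIs), Ccr2, Ccr10 (2.25), Itgae and Il7r (both 2.07), of which Pparg is known from Tregs of fat and Itgae from those of barrier tissue. Gzma and Ccl5 were the 2 lower ones. The panel took genes from 50 UMIs, so Pparg, with fewer than 100, is not among the 8686 genes of the background.

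The 457 Il18r1-positive barcodes had higher chemokine and granzyme levels, against a background of 0.288% of genes at least 2-fold higher. Xcl1 was at 5.94 (4.04 to 8.82), Ccr10 at 5.39 (3.88 to 7.55), Gzma at 4.86 (4.17 to 5.68), Ccl3 at 3.36 and Itgae at 2.59. The NK and myeloid adaptor Tyrobp was at 2.58 (1.87 to 3.54) beside them. Igkc (3.01, 2.48 to 3.65), Rad54l (2.81), Ccl4 (2.58) and E2f8 (2.52) completed the highest 10. Of the cell cycle genes on the panel, Mki67 was at 1.32 (1.23 to 1.41) and Top2a at 1.34 (1.22 to 1.47). Igkc, a leading gene of the B cell-like cluster, was also higher with Il1rl1, at 2.53 (1.95 to 3.25), and its source was not tested. Without the barcodes of other-lineage markers, Tyrobp was at 0.481 (0.240 to 0.884) and Gzma at 2.20 (1.78 to 2.73), whereas Xcl1 was at 5.91 and Ccr10 at 5.47. Klrg1 was only slightly higher, at 1.17 (1.03 to 1.32), and Ltb4r1 was not, at 0.965 (0.770 to 1.20).

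**Figure D4:**
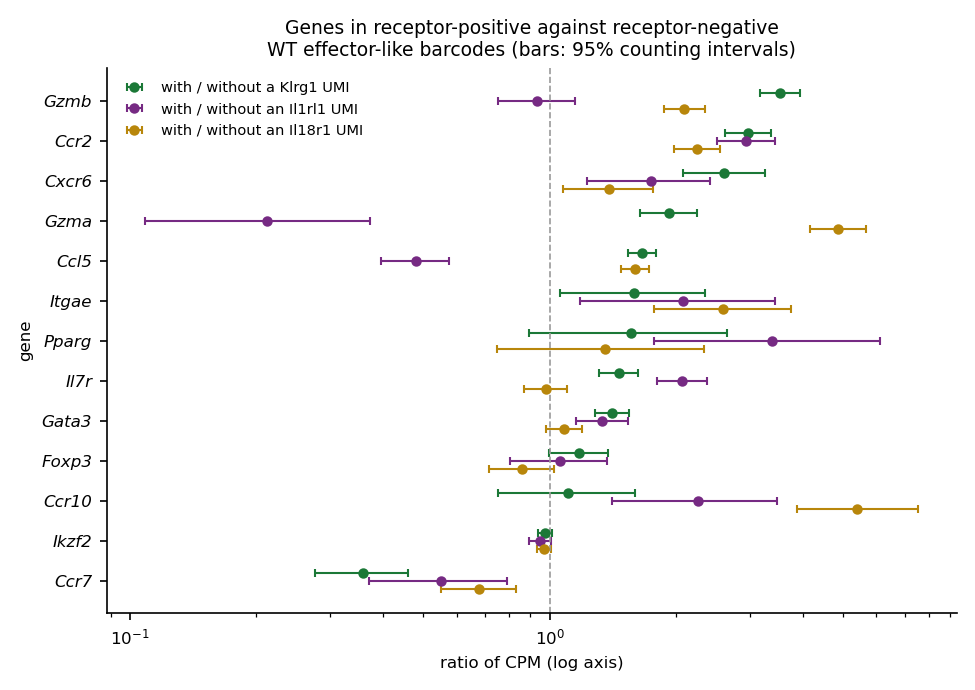
Ratio of CPM (log axis) between WT effector-like barcodes with and without a UMI of Klrg1 (green), Il1rl1 (purple) or Il18r1 (gold) for 13 genes, with 95% counting intervals and a dashed line at 1. Ccr2 lay above 1 for all 3 receptors, Gzma below 1 for Il1rl1 (0.212) and above 1 for Il18r1 (4.86), and Foxp3 and Ikzf2 close to 1.

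Of 61 genes listed for the alarmin pathway, 58 were in the files and 43 had at least 50 UMIs. Between the libraries 3 of the 43 were at least 2-fold lower in KO and none was at least 2-fold higher, against 5.36% and 1.6% of the 12727 genes with that minimum count. The median log2 ratio of the 43 was -0.09, and that of the 12727 genes was -0.09 as well. Among ligands, Il18, the cytokine bound by IL18R1, was lowest of the list with 124 UMIs in WT and 25 in KO, a ratio of 0.190 (0.118 to 0.293). Il33 had no UMI in either library. Il1b was at 0.600 (0.417 to 0.858). Within effector-like barcodes Il18 had 58 WT and 3 KO UMIs, a ratio of 1.24 (0.249 to 3.82), not separable from 1.

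Among receptors, Il1rap, the accessory chain of IL1RL1, had a ratio of 0.676 (0.541 to 0.842), and Il1rl2, the neighbour on chromosome 1, 0.541 (0.309 to 0.925) from 40 and 23 UMIs. Sigirr, which restrains this signalling, was at 1.03 (0.984 to 1.09), and Il18bp, the soluble inhibitor of interleukin-18, was the highest of its group at 1.74 (1.37 to 2.22). Of the 29 signalling genes, 11 had intervals below 1 and 9 above, and the share over all genes was not computed. The lowest were Irak3, a brake on IRAK signalling, at 0.457 (0.324 to 0.639) and the adaptor Tirap at 0.494 (0.386 to 0.629), and the highest was Nfkbia, the NF-kB inhibitor, at 1.78 (1.75 to 1.81). Myd88 was at 1.07 (0.996 to 1.15) and Traf6 at 1.04 (0.938 to 1.16). These ratios over all kept barcodes mix makeup with level. Within resting-like and effector-like barcodes Tirap had 0.702 (0.352 to 1.43) and 1.00 (0.268 to 2.65), the former from 16 WT and 22 KO UMIs. Nfkbia had 1.59 (1.55 to 1.64) and 0.932 (0.833 to 1.04) there. Of its 111 WT UMIs, Irak3 had 9 in resting-like and 14 in effector-like barcodes. Over all kept barcodes the listed phosphatase genes of inhibitory receptors, Inpp5d (0.772), Ptpn11 (0.862) and Ptpn6 (1.13), stayed within 1.5-fold. Of 10 other killer cell lectin-like receptor genes 4 were measured, from Klrb1c at 0.528 (0.331 to 0.828) to Klrk1 at 1.09 (0.735 to 1.61). None was near the ratio of Klrg1 over all kept barcodes. In KO, 26 of 32 Klrb1c, 41 of 75 Klrd1, 27 of 59 Klrk1 and 5 of 45 Klrb1f UMIs lay in effector-like barcodes. NK cell markers were raised in those barcodes, and the part of NK cells in these ratios was not tested.

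**Figure D5:**
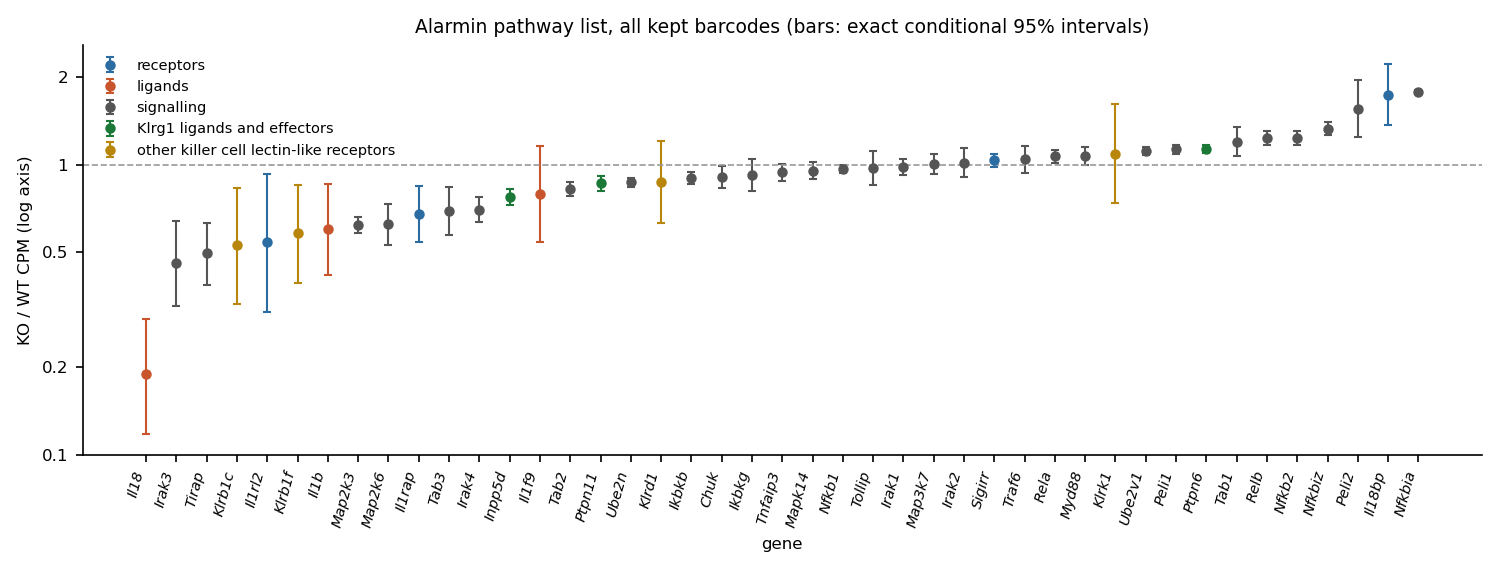
KO to WT ratio of CPM over all kept barcodes (log axis) for the 43 measured genes of the alarmin pathway list in order of ratio, coloured by role, with exact conditional 95% intervals and a dashed line at 1. Il18 at 0.190 was the lowest and Nfkbia at 1.78 the highest, and 3 of the 43 were at least 2-fold lower.

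Between WT effector-like and resting-like barcodes, 35 pathway genes had at least 50 UMIs. Intervals of the ratio lay above 1 for 9 and below 1 for 12, and the share of such intervals over all genes was not computed. At least 2-fold higher in effector-like barcodes were 4 genes, and none was at least 2-fold lower. Over the 10580 genes with that minimum count, 6.2% were at least 2-fold higher and 3.61% lower. Il18 had 58 UMIs in effector-like and 5 in resting-like barcodes, a ratio of 6.31 (2.55 to 20.1), Tirap was at 3.26 (1.91 to 5.94) and Map2k3, a kinase upstream of p38, at 2.33 (2.01 to 2.70). Klrd1 had 62 and 1 UMIs, a ratio of 33.7 with a very wide interval (5.83 to 1353). Peli1, a ubiquitin ligase of this pathway, was lowest at 0.548 (0.514 to 0.585).

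Over 22 profiles, the clusters of each library with at least 50 barcodes, the genes whose log2(CPM + 1) followed each receptor most closely were named as a description. The profiles share libraries and depth. For Klrg1 these were Ccr10 (Pearson r of 0.892), Ankrd37 (0.880), Car5b (0.872), Gm15655 (0.869) and Itgb1 (0.860). For Il1rl1 they were Pon2 (0.873), Tango2 (0.843), Limd1 (0.838), Sod1 (0.835) and Zfp410 (0.834). For Il18r1 they were Prex1 (0.883), Gpatch11 (0.877), Unc13d (0.865), Sirt7 (0.863) and Ptk2b (0.863). For Il18rap they were S100a11 (0.926), Glrx (0.921), Myo1f (0.904), Tirap (0.899) and Ostf1 (0.893). For Il1r2 they were Mlst8 (0.878), Slc27a4 (0.868), Gm39556 (0.868), Dgat1 (0.866) and Jdp2 (0.847). Between the genes themselves, r was highest for Il18rap with Il1r2 (0.774), the pair that neutrophil-like barcodes share, then for Klrg1 with Il18r1 (0.685), and 0.544 for Klrg1 with Il1rl1.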

How the data were processed

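Splenic YFP+ Tregs of 7-day-old WT and KO mice had been profiled on the 10x platform, 1 library each. The authors deposited 1 matrix per library of unnormalized UMI counts. The submitters' processing notes name Cell Ranger 5.0.1 and mm10. These counts were used unchanged. Barcodes under 300 genes or over 5% mitochondrial UMIs were left out. The libraries share 70 barcode sequences, 29 of them kept in both. The automatic threshold of Scrublet marked 0 barcodes, so doublets were kept in the main analysis, and removal of the 5% (WT) and 8% (KO) of highest score was an alternative. The study's methods text gives these percentages the other way round from its own doublet counts, the counts were followed, and the exchanged percentages were also tried.

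Counts were log-normalized to 10000 UMIs, and 2000 variable genes without the 5 genes, all markers, globin, mitochondrial, sex-linked and ribosomal RNA-like genes and Zfp335 gave 30 principal components and, over 20 neighbours, Leiden clusters at resolution 0.5 (scikit-learn 1.9.0, python-igraph 0.11.9, Scanpy 1.11.5, scipy 1.17.1, numpy 2.4.6, Python 3.11.15). No integration was run. A T-lineage cluster had at least 50% of the median T cell marker level of clusters. A name needed 3 markers and 66% of its list raised 1.5-fold, and 1 marker among the 10 leading genes. This naming rule was set after the clusters were seen. Klrg1 was the leading gene of the effector-like cluster although it was left out of the clustering.

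UMIs were summed per library and state as CPM with exact Poisson intervals, ratios with exact conditional intervals, shares with Clopper-Pearson and their differences with Newcombe intervals. PCR duplicates are collapsed by UMIs, and intervals and limits for a count of 0 (3 counts) cover counting error only. Shares were compared after thinning to 1000 UMIs per barcode, co-detection after thinning to 3000. With 1 library per group no test was run. The median of log2 KO to WT ratios of the 10593 genes was -0.08. Scripts were tested on simulated data.

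The 5 genes and all lists were chosen with earlier results of these data known. Genes were named as follows: the 5 genes, the extremes of each pathway group, panel genes past 2-fold with Klrg1 or Il1rl1, the 10 highest and lowest genes with Klrg1, the 5 genes most alike each receptor, and Zfp335. Values of some panel genes are not reported here. The other panel genes that are named, all genes of the Il18r1 comparison, and Ltb4r1, Ccl3, Ccl4, Tyrobp and Igkc in other comparisons were named after their values were seen. Alternatives covered doublets, mitochondrial and gene thresholds, mean CPM per barcode, CPM totals, scaling by the median gene, lineage subsets, clustering resolution, thinning and low counts.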

Additional observations from a re-analysis of the deposited data

How the results depend on the processing

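Over 31 results and 192 alternative settings, 163 values counted as the same, 26 as moved and 3 as reversed. A value was the same if it stayed within the reported counting interval. For the 2 results without such an interval fixed limits were used, a shift of 0.1 log2 for the pathway median and a set fold change for the number of panel genes. The alternatives within effector-like barcodes, the thinned panel and the removal of other-lineage barcodes from co-detection and the panel were added after the data had been seen. The 3 reversals were the KO to WT ratio of Il18r1 in effector-like barcodes, 1.64 as reported, at 0.548 with doublet candidates removed, 0.484 with their percentages exchanged between libraries and 0.465 with at least 1000 genes. Under the same settings that ratio was 0.0249, 0.0279 and 0.0242 for Klrg1, and 0.391, 0.317 and 0.172 for Il18rap, which thereby also crossed 1 though its reported interval included 1, and without other-lineage barcodes it was 0 for Klrg1. With the mean of CPM per barcode, the ratio over all kept barcodes was 0.0144 for Klrg1 and 0.913 for Il1r2, and the WT effector-like to resting-like ratio of Il1rl1 was 1.91. At Leiden resolution 1.0 the latter was 1.28 (0.970 to 1.70), so its interval included 1. In T-lineage clusters alone the ratio of Il18rap was 0.206. At Leiden resolution 1.0, with 1680 WT and 1671 KO resting-like barcodes, the resting-like ratio was 0.0373 for Klrg1, 0.502 for Il18r1 and 0.123 for Il18rap. The KO minus WT share moved with depth by construction. Thinned to 500 UMIs it was -1.33 points for Klrg1, -0.244 for Il1rl1, -0.496 for Il18r1 and -0.410 for Il18rap, and without thinning -8.95, -3.21, -7.08 and -4.78, with -0.832 for Il1r2. Without thinning the co-detection with Klrg1 was 9.23 points for Il18r1 and 7.07 for Il18rap. Panel genes past 2-fold with Klrg1 numbered 9 after thinning to 3000 UMIs against 5. Apart from thinning, whose effect follows from depth, the cause of these shifts was not tested. The 45 KO UMIs of Klrg1, and 17 to 28 UMIs of Il1r2 or Il1rl1 within some states, limit what could be seen. No paired analysis was possible because each group is 1 library.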
